A study of Mus musculus with 37 samples.

Results

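The genes described here are 9 writers, erasers and readers of DNA methylation (Dnmt1, Dnmt3a, Dnmt3b, Dnmt3l, Tet1, Tet2, Tet3, Uhrf1 and Mbd2) of 48795 genes counted in the mouse hippocampus. They were chosen by name, with earlier results of these data known. RNA was sequenced from whole hippocampi of 3 Kdm1a-ifKO mice and 3 control littermates, with 1 mouse per library. Kdm1a-ifKO mice carried floxed Kdm1a alleles (Kdm1a f/f) and the Camk2a-creERT2 transgene, whose recombinase is active in forebrain excitatory neurons and enters the nucleus with tamoxifen. The controls lacked the Cre transgene. All mice were males on a C57BL/6J background and received tamoxifen at 8 weeks of age. The recombinase leaves Kdm1a intact in glia, vessels and interneurons, so the hippocampal RNA mixes deleted and intact cells. In such tissue, fewer cells of a type and less RNA per cell cannot be told apart. The study asked which genes depend on Kdm1a, a demethylase of lysine 4 of histone H3, in mature neurons. DNA methylation itself was not measured in the data analysed here.

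DNA methylation is the addition of a methyl group to cytosine, mostly where a G follows it (a CpG). Dnmt3a and Dnmt3b place it on unmethylated DNA, Dnmt3l has no catalytic activity and stimulates them, and Dnmt1 copies it to the new strand after replication, guided by Uhrf1. The Tet dioxygenases oxidise methylcytosine, the first step of its removal, and Mbd2 binds methylated CpGs and belongs to the NuRD repressor complex. Neurons are known for methylation that Dnmt3a places after birth and for high levels of oxidised methylcytosine. Kdm1a is known from embryonic stem cells to demethylate the Dnmt1 protein as well as histones.

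The promoters of the members differed widely in CpG content. RefSeq start sites on GRCm38.p6 were given for 8 members, with 15 windows of 250 bases before a start, and 11 of these held more CpGs than the median of 6 over 32851 windows of all genes. Windows that overlap no annotated exon are shown for 5 members to set CpG-rich windows beside ones nearer the median. They run 5′ to 3′ on the strand of the gene, with CpGs in capitals.

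Tet2, chr3:133544391-133544640, - strand: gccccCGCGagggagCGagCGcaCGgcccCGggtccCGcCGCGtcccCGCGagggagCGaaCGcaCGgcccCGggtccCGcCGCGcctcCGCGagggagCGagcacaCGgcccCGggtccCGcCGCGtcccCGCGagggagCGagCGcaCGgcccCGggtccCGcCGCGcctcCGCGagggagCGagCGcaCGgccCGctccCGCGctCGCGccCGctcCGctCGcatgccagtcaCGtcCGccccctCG
Dnmt3a, chr12:3806730-3806979, + strand: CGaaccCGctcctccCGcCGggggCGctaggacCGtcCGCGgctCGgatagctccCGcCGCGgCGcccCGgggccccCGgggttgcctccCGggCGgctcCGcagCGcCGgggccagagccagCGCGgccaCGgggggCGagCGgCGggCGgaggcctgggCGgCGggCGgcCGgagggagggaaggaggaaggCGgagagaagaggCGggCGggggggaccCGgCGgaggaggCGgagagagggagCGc
Uhrf1, chr17:56304063-56304312, + strand: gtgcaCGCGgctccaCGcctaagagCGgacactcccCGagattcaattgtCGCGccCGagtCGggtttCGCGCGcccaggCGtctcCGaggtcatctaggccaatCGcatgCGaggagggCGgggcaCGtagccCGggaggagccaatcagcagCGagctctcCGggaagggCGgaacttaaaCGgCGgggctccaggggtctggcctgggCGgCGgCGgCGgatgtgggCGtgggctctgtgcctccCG
Dnmt1, chr9:20952980-20953229, - strand: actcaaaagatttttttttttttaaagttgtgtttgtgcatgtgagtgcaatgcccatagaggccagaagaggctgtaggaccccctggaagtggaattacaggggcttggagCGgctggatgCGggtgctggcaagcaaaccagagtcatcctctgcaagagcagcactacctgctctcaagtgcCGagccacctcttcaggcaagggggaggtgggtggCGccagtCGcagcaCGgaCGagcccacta
Dnmt3l, chr10:78049592-78049841, + strand: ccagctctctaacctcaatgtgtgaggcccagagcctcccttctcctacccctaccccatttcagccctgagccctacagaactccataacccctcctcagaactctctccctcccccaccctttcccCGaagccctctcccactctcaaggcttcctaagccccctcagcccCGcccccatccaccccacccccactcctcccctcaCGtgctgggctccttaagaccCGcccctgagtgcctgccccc

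The Tet2 window held 51 CpGs, more than 99.9% of all windows. The Dnmt3a window before its first start held 38 CpGs, more than 98.1% of windows, and the Uhrf1 window held 30, more than 94.1%. The Dnmt3l window before its second start held 4 CpGs, fewer than the median, and its other starts had 5 and 3. Dnmt1 had 3 starts with 26, 7 and 2 CpGs, from the innermost to the outermost. Tet1 had 15 CpGs, Tet3 17 and Dnmt3b 21. Uhrf1, with a CpG-rich window, was nonetheless among the lowest members in the RNA described next.

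In control hippocampus, RNA of these genes differed by about 2 orders of magnitude per exon length. Levels are given as TPM (transcripts per 1000000), from the summed exon length of each gene. Mbd2 was highest, with 44.0, 45.1 and 44.4 TPM in control replicates 1, 2 and 3. Dnmt1 followed at 35.4, 32.6 and 33.2 TPM, and Dnmt3a at 27.8, 26.5 and 28.3 TPM. Each of these genes was above the next in every control library. Tet3 reached 18.1 ± 1.12 TPM (SD, n = 3), Tet2 10.2 ± 1.33 TPM (SD, n = 3) and Tet1 2.96 ± 0.454 TPM (SD, n = 3), again with no overlap between neighbours. Tet3 thus made up 57.9% of the summed Tet TPM, Tet2 32.6% and Tet1 9.49%. Dnmt3b stood at 0.837 ± 0.0882 TPM (SD, n = 3) and Uhrf1 at 0.822 ± 0.0771 TPM (SD, n = 3). Their order was within the spread of the libraries. Dnmt3l was lowest, at 0.419, 0.559 and 0.285 TPM.

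Dnmt1 and Dnmt3a together held nearly all Dnmt RNA, with 54.0% and 44.0% of the summed TPM, against 1.34% for Dnmt3b and 0.673% for Dnmt3l. The order of Dnmt1 and Dnmt3a depended on the length used. With the longest transcript of each gene, Dnmt3a (37.2 TPM) was above Dnmt1 (33.3 TPM). Mbd2 exceeded 73.8% of the 16799 genes tested, Dnmt1 66.8%, and Uhrf1 only 3.92%.

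**Figure D1:**
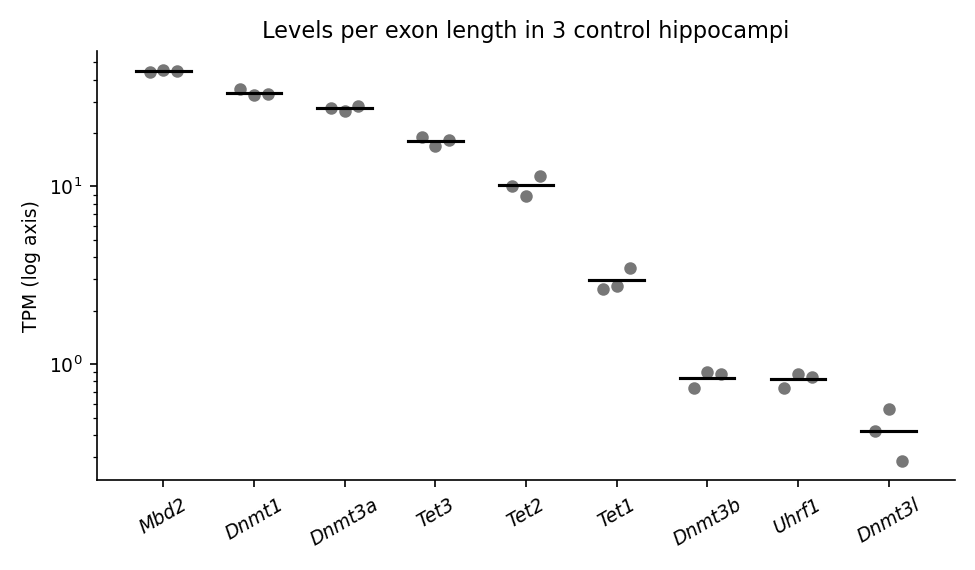
Level of each member in the 3 control libraries, in TPM on a log axis. Points are libraries and lines are means. Levels run from 44.5 TPM for Mbd2 to 0.421 TPM for Dnmt3l, and only Dnmt3b and Uhrf1 overlap as neighbours.

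The targeted gene was checked first. Kdm1a was 79.5, 81.0 and 79.5 in controls and 39.2, 36.8 and 38.4 in Kdm1a-ifKOs, in CPM (counts per 1000000) scaled by TMM factors. Its log2 fold change (log2FC, Kdm1a-ifKO over control) was -1.07 (SE 0.0559, adjusted p = 6.24e-08, edgeR quasi-likelihood test with Benjamini-Hochberg adjustment over all genes tested), and each of the 6 libraries matched its label. Totals were between 18985542 and 19469947 counts per library. Control replicate 3 and Kdm1a-ifKO replicate 2 stood apart from the other libraries on the second principal component, which held 17.4% of the variance. Of the marker lists, 4 of 9 microglial genes and 3 of 8 astrocyte genes were called higher in Kdm1a-ifKOs. These were Cx3cr1, Tmem119, Csf1r and C1qb, and Slc1a3, Aldoc and Sox9, with log2FCs between 0.20 and 0.42. Sox9 kept its call in all 13 alternatives, whereas the other 6 lost it in 4 or 5 of the 6 fits with 1 library left out, and all 6 lost it when either control replicate 2 or Kdm1a-ifKO replicate 3 was left out (adjusted p up to 0.17 by edgeR). All 9 microglial genes had a log2FC above 0, and 9 of 9 had an unadjusted p under 0.05 in edgeR. All 8 astrocyte genes also had a log2FC above 0, 4 of them at that level. Of all genes tested, 24.5% reached it in either direction. The summed CPM of the microglial list went from 386–415 to 437–563. The excitatory neuron list summed to 7190–7500 CPM in controls and 7040–7750 in Kdm1a-ifKOs. Of its 8 genes, 5 had a log2FC below 0 and 3 above. Called lower were 2 of 8, Neurod6 (log2FC -0.36) among them, where 2.82% of all genes tested were. Camk2a and Slc17a7 had log2FCs of 0.05 and 0.09 and were not called. The part of these cell types in the values of the DNA methylation genes was not tested.

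None of the tested members differed between the genotypes at the threshold used. Of 9, 8 had enough counts for the test, and 0 had an adjusted p under 0.05 in edgeR, where 8.85% of all genes tested did (6.04% higher and 2.82% lower). DESeq2 also called 0. At an unadjusted p under 0.05, 4 of the 8 members passed (Dnmt3a higher, Dnmt1, Tet1 and Tet2 lower), against 24.5% of all genes. The members' median log2FC was -0.12, against -0.0034 over all genes. Libraries of the genotypes did not overlap for 2 members, Dnmt1 and Dnmt3a, as for 30.0% of all genes. For single genes, an exact permutation test of 3 against 3 libraries cannot give a p under 0.1.

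**Figure D2:**
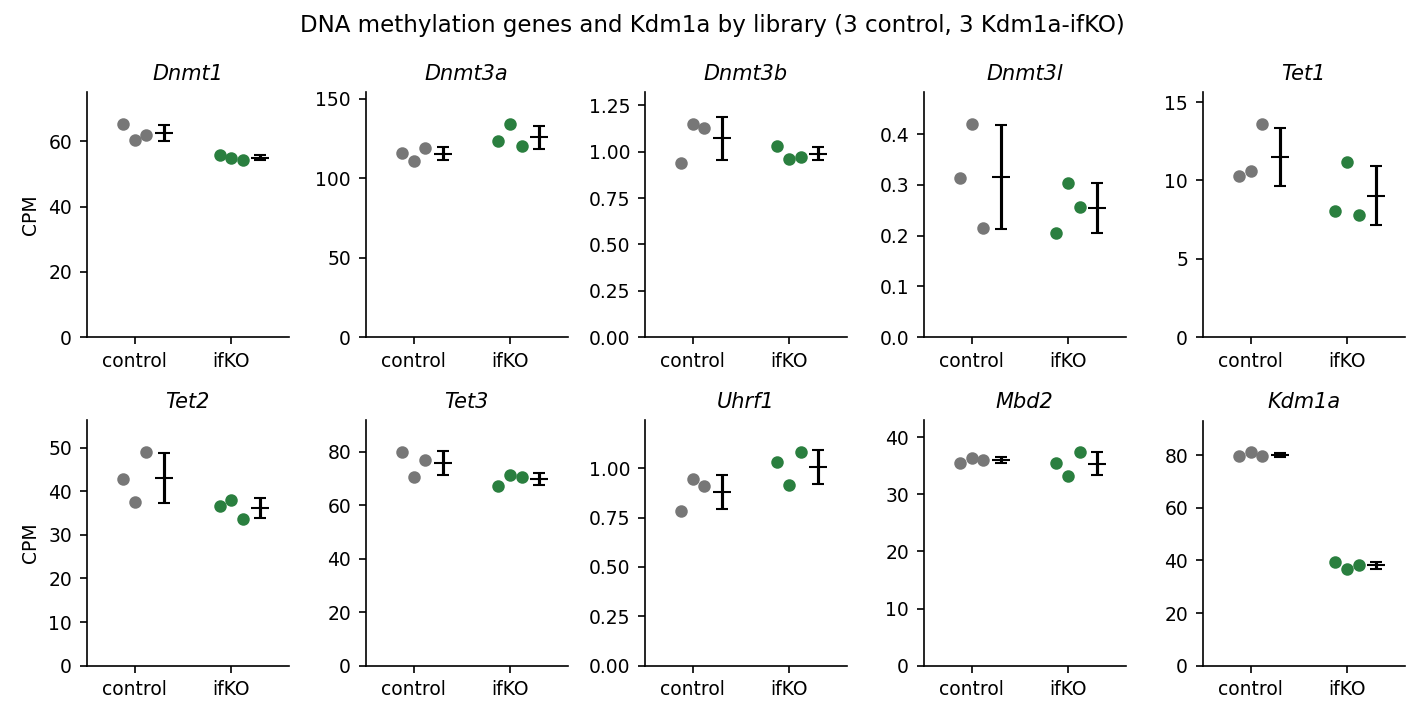
CPM of the 9 members and of Kdm1a in each library, on linear axes from 0. Points are libraries and bars are the mean ± SD of 3. Kdm1a falls from a mean of 80.0 to 38.1 CPM, while the members move by far less than that.

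Dnmt1, the maintenance methyltransferase, came closest to the threshold. It was counted at 65.3, 60.5 and 61.8 CPM in controls and at 55.8, 55.0 and 54.2 CPM in Kdm1a-ifKOs. Every Kdm1a-ifKO library lay below every control. The log2FC was -0.19 (SE 0.0564, 95% interval -0.31 to -0.06), which is 0.880 of the control level, with an adjusted p of 0.059 (edgeR). The lower end of the interval was 0.808 of the control level, for RNA of the whole hippocampus with its deleted and intact cells. Dnmt1 did not pass under any alternative that was run, with adjusted p between 0.0604 and 0.193 (edgeR or DESeq2).

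Dnmt3a, the main de novo enzyme of neurons, lay in the other direction. Its CPM was 116, 111 and 119 in controls and 123, 134 and 120 in Kdm1a-ifKOs. The genotypes did not overlap, but the closest libraries, control replicate 3 and Kdm1a-ifKO replicate 3, were about 1 CPM apart. The log2FC was 0.13 (SE 0.0568, 95% interval 0.01 to 0.25, adjusted p = 0.186 by edgeR). Its antisense neighbour Dnmt3aos, which shares exon sequence on the opposite strand, had 1 count over all 6 libraries.

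Dnmt3b, the de novo enzyme of the early embryo, had 18, 22 and 21 counts in controls and 20, 19 and 19 in Kdm1a-ifKOs. These counts overlapped, and the interval of its log2FC was wide (-0.68 to 0.45, adjusted p = 0.826 by edgeR). Levels from 0.623 to 1.36 of the control level lie within that interval. Dnmt3l, the catalytically inactive cofactor, had 6, 8 and 4 counts in controls and 4, 6 and 5 in Kdm1a-ifKOs, too few for the test. Its summed counts were 18 and 15, a ratio of 0.807 with an exact 95% counting interval of 0.379 to 1.7, which covers counting error only. With looser filters on low counts, Dnmt3l had a log2FC of -0.3 in edgeR. Its adjusted p was 0.85 without a filter and 0.809 with at least 10 counts summed. No difference was detected for either gene, and these intervals leave room for moderate ones.

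The Tet genes were all lower on average, and none passed the test. Tet1 was counted at 10.3, 10.6 and 13.6 CPM in controls and at 8.06, 11.2 and 7.80 CPM in Kdm1a-ifKOs. Tet2 was counted at 42.8, 37.5 and 48.9 CPM in controls and at 36.6, 38.1 and 33.6 CPM in Kdm1a-ifKOs. In both genes the highest library of each genotype was the one that stood apart on the second component, control replicate 3 or Kdm1a-ifKO replicate 2, and the genotypes overlapped through Kdm1a-ifKO replicate 2. The log2FC of Tet1 was -0.35 (SE 0.156, 95% interval -0.69 to -0.01, adjusted p = 0.19 by edgeR) and that of Tet2 was -0.25 (SE 0.0918, 95% interval -0.45 to -0.05, adjusted p = 0.115 by edgeR).

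These were the only members whose call changed with the processing. Without a filter on low counts, Tet2 (adjusted p = 0.00946) and Tet1 (adjusted p = 0.0498) passed in edgeR. Without control replicate 2, the control with the least Tet2 RNA, Tet2 passed (log2FC -0.35, adjusted p = 0.024), and without Kdm1a-ifKO replicate 2, Tet1 passed (log2FC -0.54, adjusted p = 0.0326). Without both control replicate 3 and Kdm1a-ifKO replicate 2, neither passed. Tet3, the most abundant of the family, was counted at 79.8, 70.8 and 76.9 CPM in controls and at 67.3, 71.4 and 70.7 CPM in Kdm1a-ifKOs. Its genotypes overlapped through control replicate 2, and its log2FC was -0.12 (SE 0.0597, 95% interval -0.25 to 0.01, adjusted p = 0.241 by edgeR). The Tet2 antisense gene Gm42567, which overlaps the start of Tet2, had 3 counts in each genotype.

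**Figure D3:**
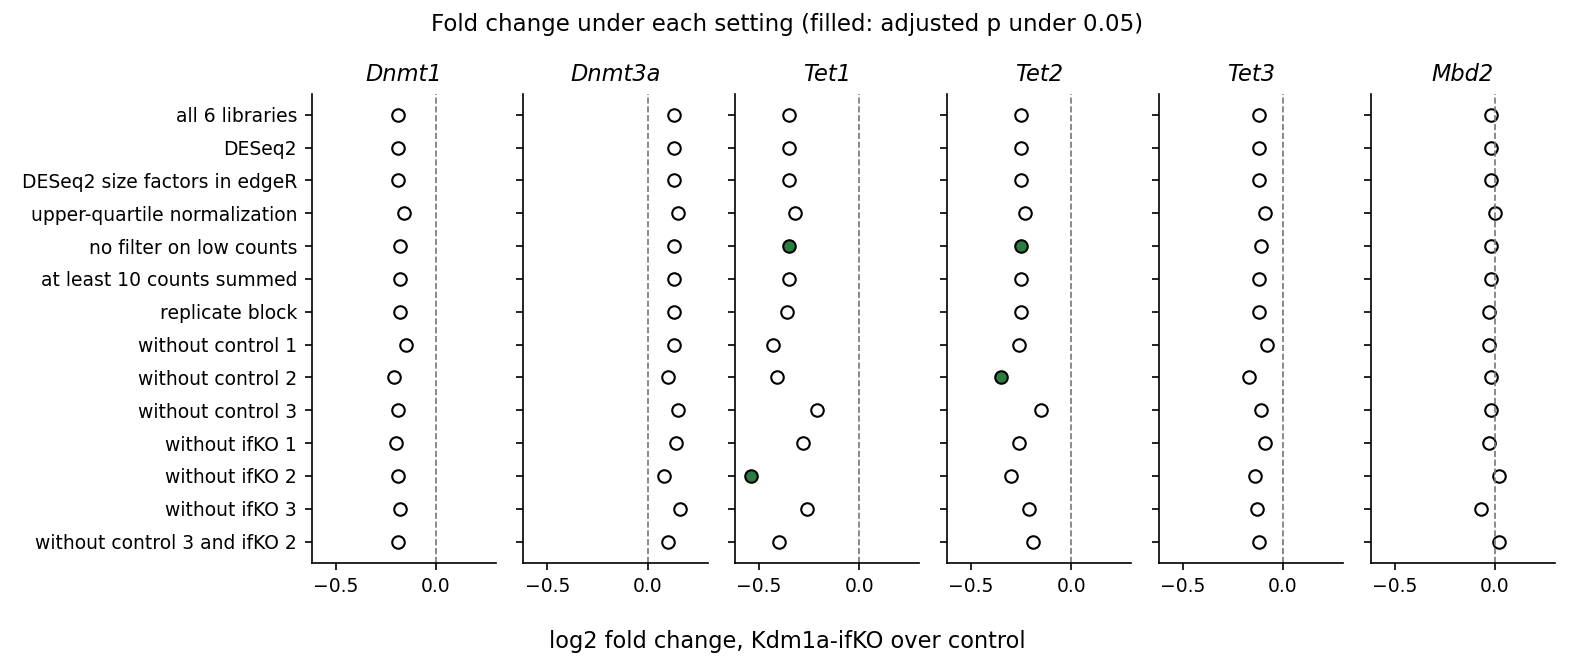
Log2FC of 6 members under each of 14 settings, from all 6 libraries to left-out libraries. Filled points have an adjusted p under 0.05. Filled points appear for Tet1 and Tet2 alone, in 2 settings each, and the Mbd2 points lie on both sides of 0.

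Of the tested members, Mbd2 had the smallest difference. It was counted at 35.4, 36.4 and 36.0 CPM in controls and at 35.5, 33.2 and 37.3 CPM in Kdm1a-ifKOs, with the genotypes fully overlapping. Its log2FC was -0.02 (SE 0.0652, 95% interval -0.16 to 0.12, adjusted p = 0.862 by edgeR), and its sign turned under 3 alternatives. That interval runs from 0.892 to 1.08 of the control level. Uhrf1, which recruits Dnmt1 to replicating DNA, had 15, 18 and 17 counts in controls and 20, 18 and 21 in Kdm1a-ifKOs. Its log2FC was 0.19 (SE 0.273, 95% interval -0.40 to 0.78, adjusted p = 0.721 by edgeR). Uhrf1 is a gene of dividing cells, and of the 7 proliferation genes tested Birc5 was higher (log2FC 1.41), Mcm5 was lower (-0.58) and the other 5 were not called. Birc5 kept its call in all 13 alternatives. Mcm5 lost it in 9 of 13, DESeq2 and the fits without any single library but Kdm1a-ifKO replicate 1 among them (adjusted p of 0.052 to 0.158 by edgeR with a library left out).

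**Figure D4:**
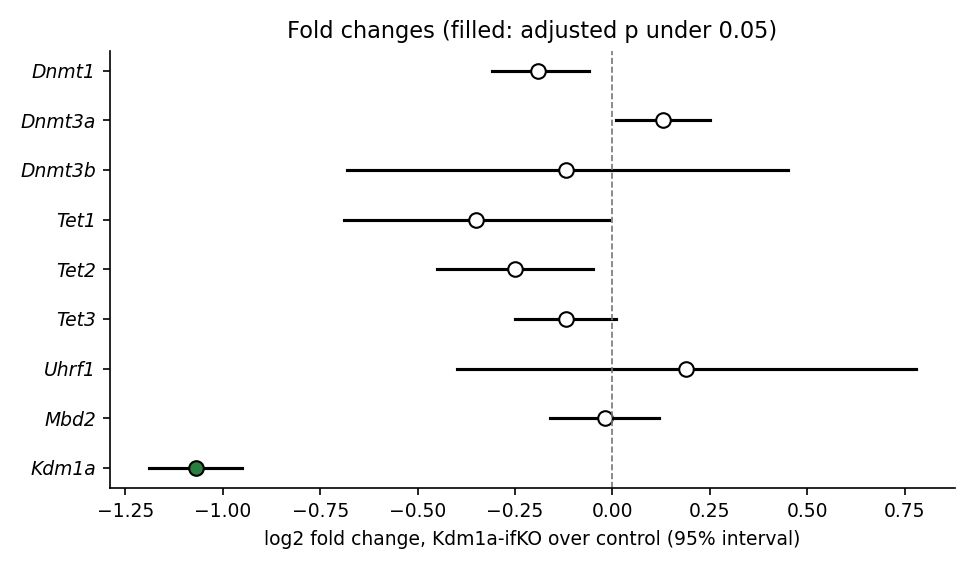
Log2FC of the 8 tested members and Kdm1a with 95% intervals. A filled point has an adjusted p under 0.05. Kdm1a alone is filled at -1.07, the intervals of Dnmt1, Tet1 and Tet2 lie below 0, and that of Dnmt3a lies above 0.

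Few partners of these genes passed the test. A list of 10 other genes of methyl-CpG reader families was drawn up by family, and not all of them need bind methylated CpGs. Of these, 0 of 10 tested passed in edgeR, with 0 higher and 2 lower at an unadjusted p under 0.05. Mbd3 stands in the NuRD list as well. Zbtb4 and Mbd3 gave 86.3 and 187 TPM in controls, the highest of that list, with log2FCs of -0.01 and 0.08. The list's median log2FC was -0.11, close to that of the members. Of 18 genes of base excision and Tet partners, 16 were tested and 0 passed, with 2 higher and 1 lower at an unadjusted p under 0.05. The most abundant were Ogt, the enzyme that adds GlcNAc to proteins and binds Tets (210 TPM, log2FC -0.20, adjusted p = 0.2 by edgeR), and Parp1 (110 TPM, log2FC -0.06). DESeq2 did not call any gene of either list.

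Of 15 maintenance partners and methyl donor enzymes, 14 were tested and 1 rose. This was Zfp57, a zinc finger protein that protects methylation at imprinted regions, which went from 12.6 ± 1.44 CPM in controls to 18.5 ± 1.30 CPM in the mutants (SD, n = 3 each). Its log2FC was 0.56 (SE 0.0995, adjusted p = 0.00323 by edgeR), and the genotypes did not overlap. Its cofactor Trim28 (144 TPM in controls) had a log2FC of 0.10 (adjusted p = 0.283 by edgeR), and Mat2a, which makes the methyl donor and was the most abundant of the list at 172 TPM, had -0.07. Of 14 NuRD subunits, 1 rose, Cdk2ap1, a small subunit of the complex, from 8.75 to 11.8 CPM (log2FC 0.44, SE 0.101, adjusted p = 0.0173 by edgeR). Zfp57 kept its call in all 13 alternatives, with an adjusted p of at most 0.0168 in edgeR with a library left out. Cdk2ap1 was not called in 3 of them, without control replicate 2, Kdm1a-ifKO replicate 2 or Kdm1a-ifKO replicate 3 (adjusted p of 0.0511 to 0.07 by edgeR). Chd3 and Mbd3, the most abundant NuRD genes at 411 and 187 TPM, had log2FCs of 0.03 and 0.08. The share called in the maintenance and NuRD lists, 1 of 14 each, was near the background of 8.85%.

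Germline genes that are known to be silenced by promoter methylation in somatic cells were mostly too low for the test. Of 16 listed, 8 had over 10 counts over the 6 libraries together, 5 were tested and 0 passed in edgeR or DESeq2, with 1 higher and 0 lower at an unadjusted p under 0.05. The summed CPM of the list was 24.2–29.3 in controls and 27.5–30.5 in Kdm1a-ifKOs. Brdt and Ddx4, a testis bromodomain protein and a germ cell helicase, were highest per length at 11.5 and 7.65 TPM. Brdt had a log2FC of 0.20 (adjusted p = 0.162 by edgeR) and Ddx4 one of -0.08. Hormad1 had 0 counts in all libraries.

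The profile of Dnmt1 over the 6 libraries was nearest to those of Ap4s1, Tmem186 and Ap2b1, by Euclidean distance of centred log2 CPM among 15270 genes (0.0394, 0.0495 and 0.0544, against a median distance of 0.361). Ap4s1 and Ap2b1 encode adaptor complex subunits of vesicle traffic. None of the 3 was called, with log2FCs of -0.16, -0.18 and -0.16.

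CTCF binds DNA and, with cohesin, anchors chromatin loops. Loops were measured by ChIA-PET in 1 library of sorted Camk2a+ hippocampal nuclei of tamoxifen-treated males labelled wild-type. By the paper's methods, nuclei were sorted from mice with Camk2a-creERT2 and a Sun1-GFP reporter, so they carried Cre, unlike the RNA controls. The loops have no replicate and no mutant counterpart. A loop is given by its number of paired-end tags (PETs) that join both anchors, with 3 or more required. Of the 9 members, 5 had an anchor within 10 kb of the gene (Dnmt1, Dnmt3b, Dnmt3l, Tet3 and Uhrf1) through 19 loops, against 57.0% of all genes tested. Dnmt3a, Tet1, Tet2 and Mbd2 had none. Dnmt3a (chr12:3806007-3914443), Tet1 (chr10:62804570-62908996) and Tet2 (chr3:133463679-133545139) lay inside no loop at all, where 83.2% of genes tested lay inside at least 1. Loops of any span count in this share, very long contacts included. The 4 loops around Dnmt3b had a median span of 111055.6 kb, against 115.4 kb over all loops.

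The strongest loop stood at Dnmt3l (chr10:78041947-78063622). It joined chr10:78025461-78032628, before the gene, to chr10:78158748-78168658 with 168 PETs, where the median of 27786 loops was 5. A further loop of 7 PETs started at chr10:78041953-78044519, on the start of Dnmt3l. Dnmt1 (chr9:20907209-20959888) had 8 loops of 3 to 38 PETs, all anchored beyond its 3′ end, and the strongest reached Mrpl4, a mitochondrial ribosomal gene, across 97.8 kb. Tet3 (chr6:83362373-83459084) had 3 loops of 3 to 11 PETs from its 3′ side, Uhrf1 (chr17:56303321-56323486) had 4 of 4 to 27 PETs, and Dnmt3b (chr2:153649450-153687730) had 2 of 3 and 10 PETs from inside the gene. Genes at the far anchor of the strongest loops were not called, and their genotypes overlapped. Mrpl4 had a log2FC of 0.02 (adjusted p = 0.888 by edgeR), D10Jhu81e, at the far anchor of Dnmt3l, -0.01 (adjusted p = 0.961) and Stambp, at that of Tet3, -0.05 (adjusted p = 0.706).

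**Figure D5:**
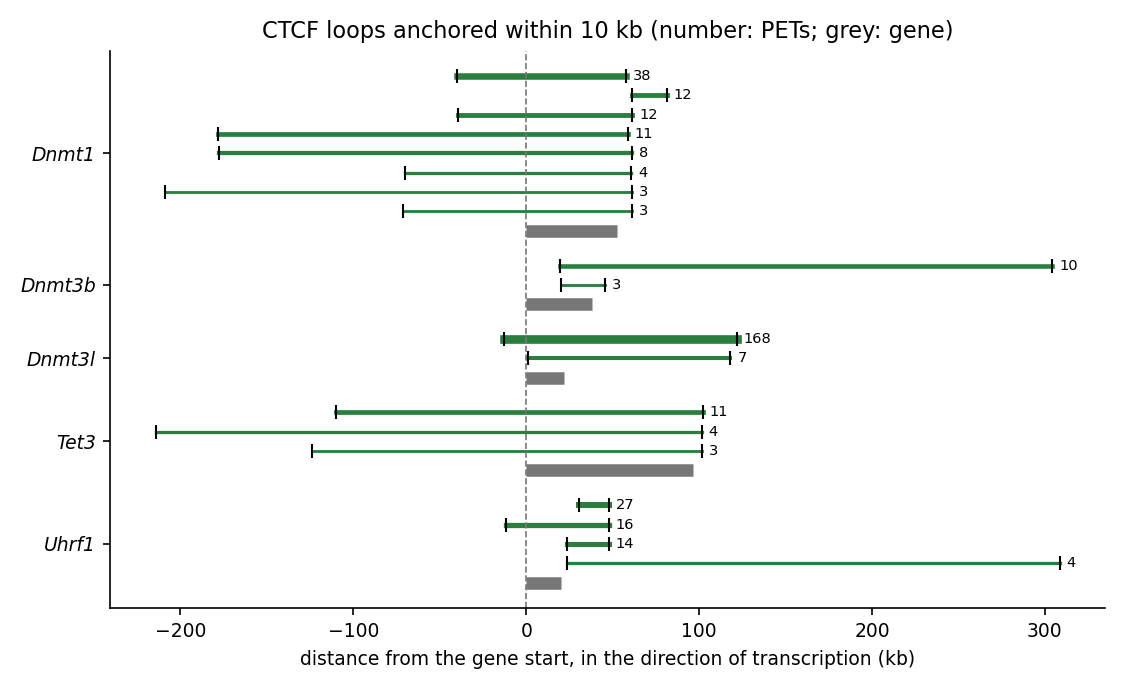
CTCF loops with an anchor within 10 kb of a member, in kb from the gene start in the direction of transcription. Each green line joins the centres of both anchors, its width and the number beside it give the PETs, and grey bars are the genes. The near anchor of the loop of 168 PETs at Dnmt3l is centred at -12.9 kb from the gene start, and those of Dnmt1 and Tet3 meet beyond the 3′ end.

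Windows at the loop anchors were searched for the core of the CTCF motif, CCNNNAGGNGGC on either strand, in 2000 bases around each centre. It was found in 29.3% of 55480 different windows and in 8.9% of windows 20 kb further along. Of the 38 windows of the members' loops, 9 held it, in 7 of these inside the anchor itself, and neither window of the 38-PET loop at Dnmt1 did. Matches inside an anchor and outside exons are shown for the strongest loops of Dnmt3l (168 PETs) and Tet3 (11 PETs) and for the Uhrf1 loop of 16 PETs, with the core in capitals. The window at the left anchor of the Dnmt3l loop held 2 matches, on opposite strands, and both are shown. That anchor and both anchors of the 38-PET loop at Dnmt1 extend beyond their windows, and their outer parts were not searched. Builds and strands are those of GRCm38.

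Dnmt3l, capitals at chr10:78028283-78028294, + strand: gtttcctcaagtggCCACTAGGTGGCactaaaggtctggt
Dnmt3l, capitals at chr10:78029295-78029306, - strand: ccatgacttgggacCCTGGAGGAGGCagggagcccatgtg
Tet3, capitals at chr6:83356709-83356720, + strand: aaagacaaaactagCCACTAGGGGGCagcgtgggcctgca
Uhrf1, capitals at chr17:56291377-56291388, + strand: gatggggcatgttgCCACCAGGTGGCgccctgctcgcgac

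The Tet3 match lies inside the anchor of the loop of 11 PETs and outside the narrower anchors of its loops of 4 and 3 PETs, although within their windows. A match describes letters in the window and is not a mapped binding site.

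Of the genes that share exons with a member, Aire alone had enough counts for the test, and it rose. Aire (chr10:78030022-78043610), the regulator of self-antigen expression in the thymus, overlaps exons of Dnmt3l on the opposite strand. Its CPM was 0.836, 0.996 and 0.859 in controls and 3.95, 4.51 and 2.51 in Kdm1a-ifKOs, with 51 and 215 counts in all. No library of one genotype reached the range of the other, the log2FC was 2.02 (SE 0.261, 95% interval 1.46 to 2.58) and the adjusted p was 0.000273 (edgeR). It passed in all 13 alternatives, with log2FCs of 1.82 to 2.23. The Dnmt3l anchor of 7 PETs covered the start of Aire, with a core of the CTCF motif 60 bases inside it, and the anchor of 168 PETs covered its 3′ end. Whether the counting used strand is not given in the sources used here, and without strand reads from the shared exons of Dnmt3l and Aire cannot be told apart. Dnmt3l itself had 18 counts in controls and 15 in Kdm1a-ifKOs.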

How the data were processed

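Hippocampal RNA-seq of 3 control and 3 Kdm1a-ifKO mice was analysed. The authors trimmed reads with cutadapt 1.18, aligned them to GRCm38 with HISAT2 2.1.0 and deposited raw gene counts made with HTSeq 0.11.1, and a ChIA-PIPE loop list with PET counts per loop. The other assays of the series were not analysed here. Symbols, positions and exon lengths came from GENCODE M21. Genes passing filterByExpr were fitted with edgeR 4.0.16 (TMM, quasi-likelihood, only these 6 libraries, no covariate), with Benjamini-Hochberg adjustment over all 16799 genes tested. CPM and TPM were computed from the counts. The script was tested on simulated data. Alternatives were DESeq2 1.42.0, other size factors, other filters on low counts, a replicate block, and libraries left out. The members and the lists were chosen with earlier results of these data known. The text names all members, Kdm1a, list genes whose adjusted p was under 0.05 (1 is not reported here), the 2 highest genes by control TPM of each pathway list, the 3 profiles nearest to Dnmt1, and genes at the far anchor of the strongest loops. Hormad1, Camk2a, Slc17a7, Ttr, Dcx, Lhx6 and Sst were named after their values were seen, and Aire, Dnmt3aos and Gm42567 because they share exons with a member. Loop coordinates are 1-based on mm10. Replicates were separate mice.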

Additional observations from a re-analysis of the deposited data

How the results depend on the processing

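Of 104 member values under 13 alternatives, 97 kept their direction and their side of the threshold, 4 passed it (the Tet1 and Tet2 values given above) and 3 turned sign, all for Mbd2 (log2FC 0.00 with upper-quartile normalization, -0.07 to 0.02 with 1 library left out, and 0.02 with both libraries left out that stood apart on the second component, a setting chosen after seeing the data). The number of members called lower was 2 without a filter on low counts, and 0 to 1 with 1 library left out, and none was called higher in any setting. The unfiltered fit called 2537 genes in all, against 1487, and the cause was not tested. Of 72 genes of the other pathway lists, 2 were called higher, 4 with upper-quartile normalization, 3 without a filter on low counts and 1 to 3 with a library left out, while 0 were called lower, 2 without a filter on low counts (Ogt and Zbtb33), and 0 to 1 with a library left out. Same-numbered libraries did not deviate together (correlations of -0.041, -0.104 and -0.163), where differently numbered ones gave -0.104 to 0.177. The labels do not say whether a shared number marks paired mice, and so few correlations cannot exclude it. A replicate block called 0 members and left Dnmt1 at a log2FC of -0.18, with 1046 genes called in all. Kdm1a kept log2FCs between -1.09 and -1.04. The order of levels had 5 members at another rank by CPM without exon length and 2 with the longest transcript, and 0 with a control library left out. For the loops, 2 members had an anchor on the gene body, against 5 within 10 kb and 7 within 25 kb, where Dnmt3a and Mbd2 were added. The number of loops was 3 on the gene body, 41 within 25 kb, 12 with at least 5 PETs and 10 with at least 10 PETs, against 19. Dnmt3l, Dnmt3b and Uhrf1, with 4 to 22 counts per library, are limited by depth.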

Other observations

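The ratio of Dnmt3a to Dnmt1 within each library, a measure chosen after the values were seen, was 1.77, 1.83 and 1.92 in controls and 2.21, 2.44 and 2.21 in Kdm1a-ifKOs. It does not depend on the scaling between libraries. The means were 1.84 ± 0.0738 and 2.29 ± 0.133 (SD, n = 3 each), a log2 ratio of 0.31. That the genotypes did not overlap follows from the values of both genes, which did not overlap in opposite directions, and no test is given. The summed CPM of Tet1, Tet2 and Tet3 was 133, 119 and 139 in controls and 112, 121 and 112 in Kdm1a-ifKOs, which overlapped through Kdm1a-ifKO replicate 2 and control replicate 2.

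Kl, the gene of the ageing suppressor klotho, was the gene with the lowest adjusted p of all marker lists. It rose from 24.4 ± 2.25 to 58.9 ± 2.27 CPM (SD, n = 3 each; log2FC 1.28, adjusted p = 1.32e-07 by edgeR). It stood in the choroid plexus and ependyma list, of which 0 of the other 5 tested genes were called. Ttr, the defining choroid plexus transcript of that list, went from 16.5 ± 13.4 to 5.89 ± 2.45 CPM (SD, n = 3 each; log2FC -1.49, adjusted p = 0.337 by edgeR) and was not called. Igfbpl1, of the newborn neuron list, rose to a mean of 2.71 CPM (log2FC 1.20, adjusted p = 0.0235 by edgeR). Of the 5 genes of that list tested, 4 had a log2FC above 0, 2 of them at an unadjusted p under 0.05 in edgeR. Dcx was the 1 below 0, with a log2FC of -0.41, and was not called (adjusted p = 0.263 by edgeR). The call of Igfbpl1 was lost without control replicate 2, control replicate 3 or Kdm1a-ifKO replicate 3 (adjusted p of 0.0618 to 0.102 by edgeR). Of the 8 interneuron genes tested, 2 were called lower and 0 higher. These were the peptides Vip and Npy (log2FC -0.46 and -0.31, adjusted p = 0.0122 and 0.0106 by edgeR), and the call of Vip was lost without Kdm1a-ifKO replicate 1 or replicate 3 (adjusted p of 0.0548 to 0.063 by edgeR). Of these 8 genes, 6 had a log2FC below 0. At an unadjusted p under 0.05 in edgeR, 4 were lower and 1 was higher. Over all genes tested, 2.82% were called lower, and 24.5% reached that p in either direction. Lhx6 and Sst, the 2 above 0, had log2FCs of 0.23 and 0.07 and were not called. No gene of the oligodendrocyte, oligodendrocyte precursor or endothelial lists was called in edgeR, with 0, 2 and 0 genes at an unadjusted p under 0.05.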
